A study of Mus musculus with 4 samples.

Results

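miR-99a, miR-99b and miR-100 on one side and miR-125a and miR-125b on the other are made from 3 genomic loci, each of which holds a miR-99/100 hairpin, a let-7 hairpin and a miR-125 hairpin on the same strand. The 9 mature arms followed here were chosen by name and by no cut on measured values, but with earlier results of these data known. The study had already listed some of them as changed in these libraries. They are the 5 guide arms miR-99a-5p, miR-99b-5p, miR-100-5p, miR-125a-5p and miR-125b-5p and the 4 opposite arms miR-99a-3p, miR-99b-3p, miR-100-3p and miR-125a-3p, out of 942 mature miRNAs in the count table. All 9 had reads in every library. The question was whether arms whose hairpins lie at 1 locus (miR-99a with miR-125b-2, miR-99b with miR-125a, miR-100 with miR-125b-1) differed between mice together.

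The libraries were small RNA libraries of the brain cortex, each from 1 mouse of the B6C3 strain aged 9 months. Both AD mice carried the APPswe and PS1deltaE9 transgenes, a mutant amyloid precursor protein and a presenilin 1 lacking an exon, which in this line are directed to neurons of the central nervous system and model amyloid deposition only. The WT mice were wild type siblings, paired by the study as WT1 with APP4 and WT2 with APP3, so that each genotype had 2 mice. No source used here gives the sex of the mice, and a library of whole cortex mixes all its cell types, so that fewer cells of a type and less of a miRNA per cell cannot be told apart.

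A miRNA hairpin is cut into a duplex, of which usually 1 strand, the guide, stays in the Argonaute protein and the other, the passenger, is degraded. The guide finds its target mRNAs mainly through its seed. The miR-99/100 family is known for repressing mTOR and other parts of insulin-like growth factor signalling, and the miR-125 family, relatives of the worm lin-4 miRNA, for roles in developmental timing and in neuronal differentiation, as is let-7. Hairpins cut from 1 host transcript share its promoter, while the mature arms also depend on processing, loading and decay.

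The mature sequences of the 9 arms (RefSeq, GRCm38.p6, all 9 matched by name) are shown because the results divide by seed family and by arm. They run 5′ to 3′ with the seed, bases 2 to 8, in capitals.
miR-99a-5p: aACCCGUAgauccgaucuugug
miR-99b-5p: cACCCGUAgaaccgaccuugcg
miR-100-5p: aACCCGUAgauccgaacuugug
miR-125a-5p: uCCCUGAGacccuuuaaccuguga
miR-125b-5p: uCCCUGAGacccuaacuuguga
miR-99a-3p: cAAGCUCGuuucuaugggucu
miR-99b-3p: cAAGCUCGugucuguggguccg
miR-100-3p: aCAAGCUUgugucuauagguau
miR-125a-3p: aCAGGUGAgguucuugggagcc

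The 3 miR-99/100 guides had the same seed, and no other miRNA of the table had it. Counted from 1 at the 5′ end, miR-99a-5p differed from miR-100-5p by the substitution U16A alone and from miR-99b-5p by A1C, U11A, U16C and U21C. The miR-125 guides also had 1 seed, which in the table was found in miR-351-5p as well, and were an edit distance of 3 apart. Since the authors counted length and mismatch variants with each miRNA, reads of such near-identical guides could have been divided between them, and the division between miR-99a-5p and miR-100-5p in particular is uncertain. The seeds of partners at 1 locus differed.

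The hairpins are given on GRCm38 with GENCODE annotation, all on the plus strand. On chromosome 16, Mir99a (chr16:77598936-77599000), Mirlet7c-1 (chr16:77599657-77599750) and Mir125b-2 (chr16:77646273-77646343) lie in introns of the noncoding gene Mir99ahg and span 47408 bases. On chromosome 17 the locus is compact, at 692 bases, with Mir99b (chr17:17830188-17830257) and Mirlet7e (chr17:17830352-17830444) in an intron of the protein-coding gene Spaca6 and Mir125a (chr17:17830812-17830879) within an annotated Spaca6 exon. On chromosome 9, Mir100 (chr9:41531425-41531504), Mirlet7a-2 (chr9:41536716-41536811) and Mir125b-1 (chr9:41581926-41582002) lie in introns of the noncoding gene 3110039I08Rik over 50578 bases. The mature miR-125b-5p is identical from both of its hairpins, so its reads could not be assigned to chromosome 9 or 16. Its 3p arms, miR-125b-1-3p and miR-125b-2-3p, differ and were used to read the hairpins apart.

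The libraries held 26085776 miRNA reads (WT1), 22078713 (WT2), 21266937 (APP3) and 19048747 (APP4), and values are given as reads per 1000000 of these totals (RPM), on which 3 reads equal 0.115 to 0.157 RPM. Neuronal miRNAs summed to between 69588 and 78024 RPM, and the liver miRNA list to at most 4.45 RPM. Libraries WT2 and APP4 stood apart in the values below, and APP4 also had 1108 RPM of the epithelial list against 45.4 to 64.5 RPM in the other libraries. In APP4 against WT1 the median log2 difference of all tested miRNAs was 0.21. Scaling by TMM, which equalises the bulk of the miRNAs, moved it to −0.04 and lowers every log2 difference of this pair by the same amount.

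The 5 guides were abundant, and all 5 were highest in WT2 and lowest in APP4. miR-99b-5p had 8632 RPM (WT1), 18065 (WT2), 9450 (APP3) and 4986 (APP4). miR-100-5p had 2751, 5861, 2211 and 1199 RPM in the same order, and miR-99a-5p had 2111, 2718, 1875 and 1238 RPM. For miR-100-5p and miR-99a-5p both AD libraries were below both WT libraries, whereas for miR-99b-5p APP3 was above WT1 and the groups overlapped. miR-125a-5p had 15527 RPM (WT1), 25146 (WT2), 16680 (APP3) and 14635 (APP4), and miR-125b-5p had 12972, 19810, 12883 and 11761 RPM. The miR-125a-5p groups overlapped. Those of miR-125b-5p were apart by a narrow margin, with the 95% Wilson intervals of WT1 (12928 to 13015 RPM) and APP3 (12835 to 12931 RPM) meeting at their ends. Such intervals cover counting error within a library only, and no difference between mice. Because PCR copies were counted as reads, the intervals understate even that error.

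The AD libraries were below the WT libraries without overlap in 3 of the 5 guides, beside 8.99% of the 623 miRNAs tested over the 4 mice. On the TMM scale miR-125a-5p joined them, giving 4 of 5 beside 19.1%. The order with WT2 highest and APP4 lowest, seen in 5 of 5 guides, was that of 6.74% of the 623 miRNAs. By mean level miR-125a-5p ranked 13, miR-125b-5p 16, miR-99b-5p 20, miR-100-5p 46 and miR-99a-5p 55 in the table. Together the 9 arms made up 4.21% of the miRNA reads (WT1), 7.17% (WT2), 4.32% (APP3) and 3.39% (APP4). Within this, the miR-99/100 guides held 1.35, 2.66, 1.35 and 0.742% and the miR-125 guides 2.85, 4.50, 2.96 and 2.64%.

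**Figure D1:**
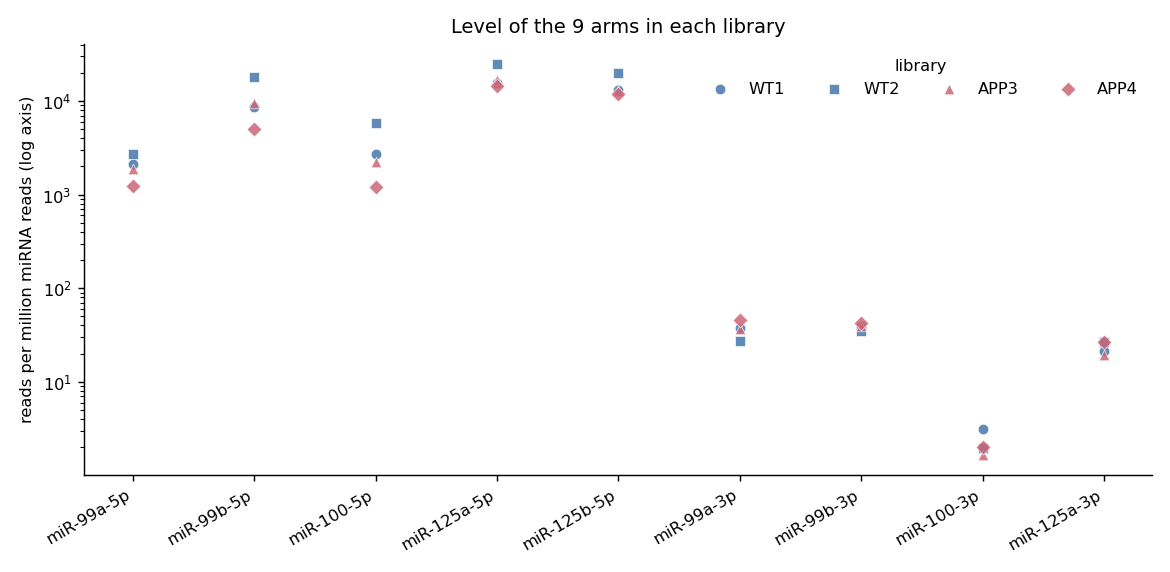
Level of the 9 arms in each of the 4 libraries (RPM, log axis), with WT and AD libraries in separate colours and 1 point per mouse. The 5 guide arms lie above 1000 RPM with WT2 on top and APP4 at the bottom, and the 4 opposite arms lie below 50 RPM without that order.

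The sibling pairs were compared with a two-sided Fisher's exact test for each miRNA and called at a false discovery rate under 0.05 and at least 1.5-fold, which compares 2 libraries and not the genotypes. In APP4 against WT1, 3 of the 5 guides were called lower, beside 1.89% of 899 miRNAs (11.6% called in either direction). These were the whole miR-99/100 family, with log2 fold changes of −0.77 for miR-99a-5p, −0.79 for miR-99b-5p and −1.20 for miR-100-5p and counting errors (SE) of at most 0.0112. The miR-125 guides were not called, at −0.09 for miR-125a-5p and −0.14 for miR-125b-5p. On the TMM scale the 5 values were −1.02, −1.05, −1.45, −0.34 and −0.39, with the same 3 guides past 1.5-fold.

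In APP3 against WT2, 4 of the 5 guides were called lower, beside 3.46% of 896 miRNAs (6.81% in either direction). miR-100-5p had a log2 fold change of −1.41, miR-99b-5p of −0.93, miR-125b-5p of −0.62 and miR-125a-5p of −0.59. miR-99a-5p, at −0.54, did not reach 1.5-fold. So miR-100-5p and miR-99b-5p were called lower in both pairs, which have no library in common, and each of the other 3 guides in 1 pair. All 5 guides were lower in the AD sibling of both pairs. Only the 1.5-fold limit kept those 3 from a call in the other pair. The 5 guides had a median of −0.77 in the first pair and −0.62 in the second, against medians over all tested miRNAs of 0.21 and 0.05.

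**Figure D2:**
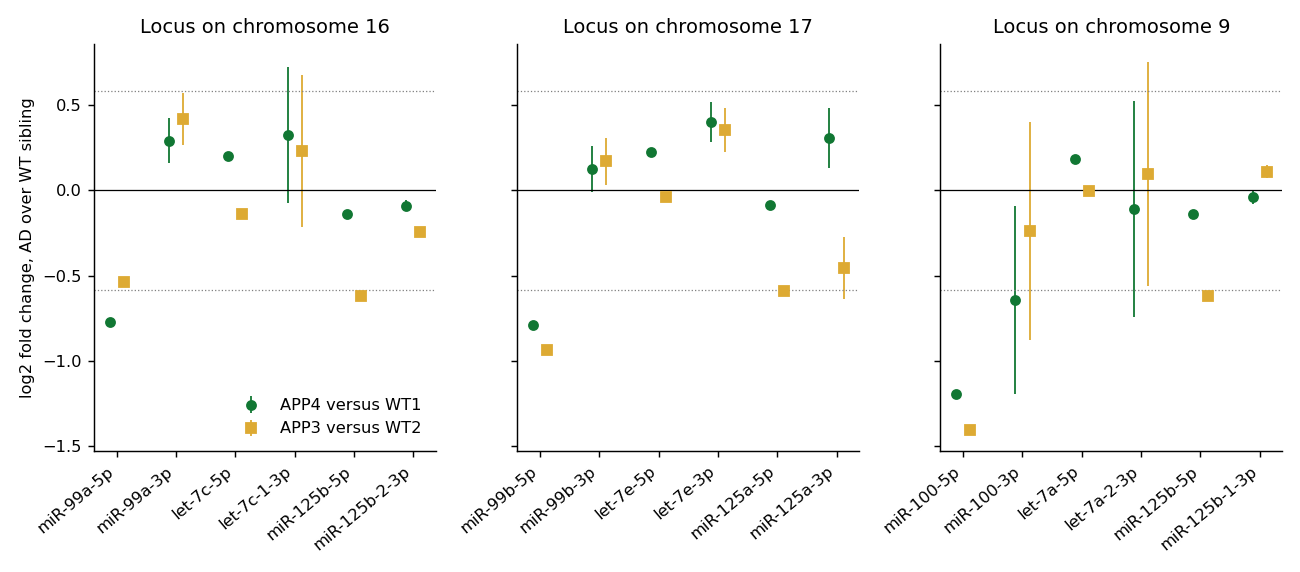
Log2 fold change of the mature arms of each locus in the 2 sibling pairs, APP4 against WT1 and APP3 against WT2, with bars of the 95% counting interval and dotted lines at 1.5-fold. The miR-99/100 guides lie between −0.54 and −1.41, the miR-125 guides near 0 in the first pair and near −0.6 in the second, and no let-7 or 3p arm was called on this scale of miRNA totals.

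The guides also differed between mice of the same genotype, and in both genotypes the mouse of the second pair was the higher for all 5 guides. In WT2 against WT1, 4 of the 5 guides were called higher (7.62% of all tested were, and 10.1% in either direction), with log2 fold changes of 1.07 for miR-99b-5p, 1.09 for miR-100-5p, 0.70 for miR-125a-5p and 0.61 for miR-125b-5p and an uncalled 0.36 for miR-99a-5p. In APP4 against APP3, the 3 miR-99/100 guides were called lower (2.98% of all tested were, 5.07% higher and 8.05% in either direction), at −0.60 for miR-99a-5p, −0.92 for miR-99b-5p and −0.88 for miR-100-5p. The miR-125 guides differed by −0.19 and −0.13 there. For miR-100-5p both sibling differences were larger than both of these, whereas for miR-99b-5p WT2 stood further above WT1 than above its AD sibling. For miR-99a-5p the 0.36 between the WT mice was smaller than either sibling difference and the −0.60 between the AD mice lay between them.

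Over the 4 mice, edgeR's quasi-likelihood test called 0 of 623 miRNAs (0% of those tested), with 36 at an unadjusted p under 0.05, and DESeq2 called 0, with 28. The 5 guides had edgeR log2 fold changes for AD against WT of −1.43 (SE 0.41) for miR-100-5p, −0.98 (SE 0.41) for miR-99b-5p, −0.75 (SE 0.27) for miR-99a-5p, −0.53 (SE 0.23) for miR-125b-5p and −0.50 (SE 0.25) for miR-125a-5p. Of these, miR-100-5p, miR-99a-5p and miR-99b-5p had an unadjusted edgeR p under 0.05, beside 3.21% of the 623 miRNAs with such a p and a lower level. The Benjamini-Hochberg adjusted p was 0.768 for the guides, except for 0.879 for miR-125a-5p. With the sibling pair as a block, edgeR called 2 miRNAs, of which miR-100-5p was 1, at a log2 fold change of −1.44 (SE 0.16) and an adjusted p of 0.0166. miR-99b-5p then had an adjusted p of 0.0828. The fold changes depended on single libraries, and with 1 left out they ranged from −2.02 to −0.82 for miR-100-5p, −1.60 to −0.39 for miR-99b-5p, −1.16 to −0.44 for miR-99a-5p, −0.77 to −0.22 for miR-125b-5p and −0.77 to −0.14 for miR-125a-5p. They were smallest without WT2, or without APP4 for miR-99a-5p, and largest without APP3 for the miR-99/100 guides and without WT1 for the miR-125 guides. The count of calls did so too, being 21 without APP3, 5 without APP4, 3 without WT1 and 0 without WT2. Without APP3 the miR-99/100 guides were among the 21, with edgeR adjusted p-values of 0.0442 for miR-99a-5p, 9.12e-04 for miR-99b-5p and 4.70e-05 for miR-100-5p, where the lone AD library was assumed to vary as the WT libraries did.

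The sums of some cell type marker lists shared an order of libraries with guides. Of the 623 miRNAs tested over the 4 mice, 8.99% had both AD libraries below both WT libraries. WT2 was highest and APP4 lowest in 6.74% of them. The list for smooth muscle and pericytes summed to 24066 RPM (WT1), 24480 (WT2), 20873 (APP3) and 16778 (APP4), lower in both AD libraries as for miR-99a-5p and miR-100-5p. Nearly all of this sum was miR-143-3p. The other marker, miR-145a-5p, had 164, 152, 112 and 150 RPM, also lower in both AD libraries, though APP4 was barely below WT2. The choroid plexus and pigment epithelium list, at 3500, 4387, 3505 and 2926 RPM, and the red cell list, at 3993, 4626, 4047 and 3206 RPM, were highest in WT2 and lowest in APP4, as the guides were. Each of these sums was also carried by 1 marker, miR-204-5p and miR-486-5p, and the other markers had other orders. miR-211-5p had 15.7, 17.03, 33.3 and 25.6 RPM, higher in both AD libraries, and the red cell markers miR-451a (91.4, 200, 159 and 146 RPM) and miR-144-3p (2.57, 8.47, 7.57 and 7.56 RPM) were lowest in WT1. No marker of these 3 lists was at 0, and their part in the guides' values was not tested. The neuronal list (72884, 77890, 69588 and 78024 RPM) did not follow this order, nor did the lists for oligodendrocytes (1368 to 1742 RPM) and endothelium (7322 to 9135 RPM). The microglia and leukocyte list, at 380, 481, 586 and 501 RPM, was higher in both AD libraries. Nearly all of that sum was miR-150-5p. miR-142-3p was also higher in both AD libraries, whereas miR-223-3p was not.

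None of the opposite arms of the same hairpins had the order of the guides, with WT2 highest and APP4 lowest. Still, miR-100-3p was lower in the AD sibling of both pairs, and miR-125a-3p in APP3 against WT2. miR-99a-3p had 37.8 RPM (WT1), 27.6 (WT2), 36.9 (APP3) and 46.3 (APP4), the reverse of its guide, with WT2 lowest and APP4 highest and the groups overlapping. miR-99b-3p had 39.1, 35.3, 39.7 and 42.7 RPM, again lowest in WT2 and highest in APP4, and its AD libraries were above its WT libraries in RPM, as in 27% of the 623 miRNAs, but overlapped them on the TMM scale. miR-125a-3p had 21.4, 26.4, 19.2 and 26.5 RPM, so that each group held a high and a low library. miR-100-3p was the least abundant, at 3.14, 1.95, 1.65 and 1.99 RPM, and the intervals of WT2 (1.45 to 2.62 RPM) and of both AD libraries overlapped.

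On the scale of miRNA totals none of the 4 opposite arms was called in either sibling pair, where 9.68 and 3.35% of all tested miRNAs were called higher and the shares given above lower. Their log2 fold changes in APP4 against WT1 were 0.29 for miR-99a-3p, 0.13 for miR-99b-3p (−0.13 on the TMM scale), −0.65 for miR-100-3p, with a counting SE of 0.28, and 0.31 for miR-125a-3p. On the TMM scale miR-100-3p was called lower in this pair, at −0.90, and its AD libraries were below its WT libraries. In APP3 against WT2 they were 0.42, 0.17, −0.24 and −0.45. Between the WT mice, miR-100-3p was called lower in WT2 at −0.68 (2.5% of all tested were), where its guide was called higher. edgeR gave −0.64 (SE 0.34) for miR-100-3p, −0.20 (SE 0.22) for miR-125a-3p, 0.20 (SE 0.26) for miR-99a-3p and 0.01 (SE 0.21) for miR-99b-3p over the 4 mice.

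**Figure D3:**
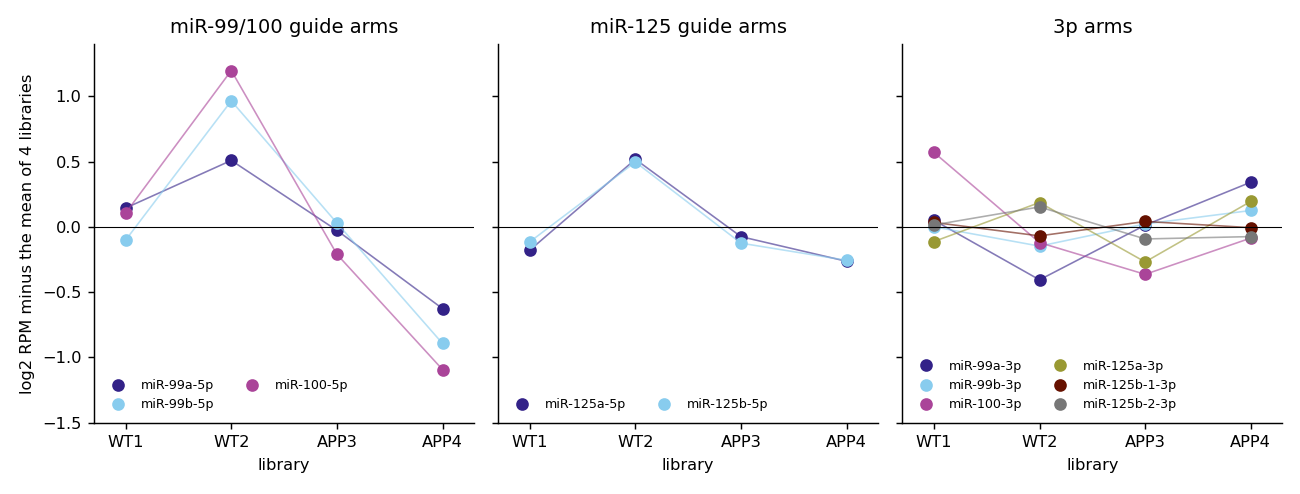
Log2 RPM in the 4 libraries after subtracting the mean of each arm, with panels for the miR-99/100 guides, the miR-125 guides and the 3p arms of the loci, and with lines only to join the points of 1 arm. Both guide panels peak at WT2 and are lowest at APP4, the miR-125 points nearly coincide, and the 3p arms show no common order.

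The balance of the arms of a hairpin, as the log2 ratio of 5p to 3p reads, does not depend on library scaling. For mir-99a it was 5.80 (WT1), 6.62 (WT2), 5.67 (APP3) and 4.74 (APP4), both AD libraries lying below both WT libraries. For mir-99b it was 7.78, 9.00, 7.89 and 6.87, and for mir-100 9.76, 11.54, 10.37 and 9.21, each with APP3 above WT1. The AD minus WT differences were −1.01, −1.01 and −0.86, and of 149 hairpins with enough reads in both arms only 2, 1 and 5 had a lower value than mir-99a, mir-99b and mir-100. The median of the 149 was −0.04. For mir-125a the difference was −0.27 and for let-7e −0.28, and 33 and 28 hairpins were lower. The exact two-sided permutation p was 0.333 for mir-99a and let-7e and 0.667 for the other 3, and 0.333 is the smallest that 2 mice against 2 can give. The AD libraries were below the WT libraries in 16.8% of the 149 hairpins.

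The question of shared movement was put to the guides through the log2 ratio of partners in each library. miR-99a-5p to miR-125b-5p was −2.62 (WT1), −2.87 (WT2), −2.78 (APP3) and −3.25 (APP4). miR-99b-5p to miR-125a-5p was −0.85, −0.48, −0.82 and −1.55. miR-100-5p to miR-125b-5p was −2.24, −1.76, −2.54 and −3.29, the only one of these 3 ratios with both AD libraries below both WT libraries. Of all orders of 2 mice against 2, 33.3% separate the groups in either direction, and the share among all miRNA ratios was not counted. The AD minus WT differences were −0.27, −0.52 and −0.92, with exact two-sided permutation p-values of 0.667, 0.667 and 0.333. The SD of these ratios over the 4 libraries was 0.267, 0.452 and 0.644. The 252 miRNAs averaging 50 RPM or more form 31626 pairs, whose median SD was 0.285, and 45.1, 80.2 and 89.3% of pairs were steadier than the 3 partner pairs.

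Guides with the same seed, which come from different chromosomes, ranged from very steady ratios to ratios as variable as those of partners. miR-125a-5p to miR-125b-5p was 0.26, 0.34, 0.37 and 0.32, a spread of 0.0484 (SD) over the 4 libraries, and 0.598% of the 31626 pairs were steadier. miR-99b-5p to miR-100-5p was 1.65 and 1.62 in the WT libraries and 2.10 and 2.06 in the AD libraries. That ratio thus differed little within a genotype, also between WT1 and WT2, where both guides were called higher in WT2, and was 0.44 higher in AD. Its exact two-sided permutation p was 0.333, the smallest possible here. Over the 4 libraries its SD was 0.254, and 41.6% of the 31626 pairs were steadier. The share of pairs that separate the genotypes in this way was not counted. Ratios of miR-99a-5p to miR-99b-5p and to miR-100-5p had SDs of 0.338 and 0.492. Replacing a partner with the other miR-125 guide hardly changed the spread. The SD was 0.281 for miR-99a-5p to miR-125a-5p, 0.465 for miR-99b-5p to miR-125b-5p and 0.645 for miR-100-5p to miR-125a-5p. miR-100-5p to miR-125a-5p also had both AD libraries below both WT libraries, with an AD minus WT difference of −0.96. That separation was thus not particular to miR-100-5p and its partner.

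**Figure D4:**
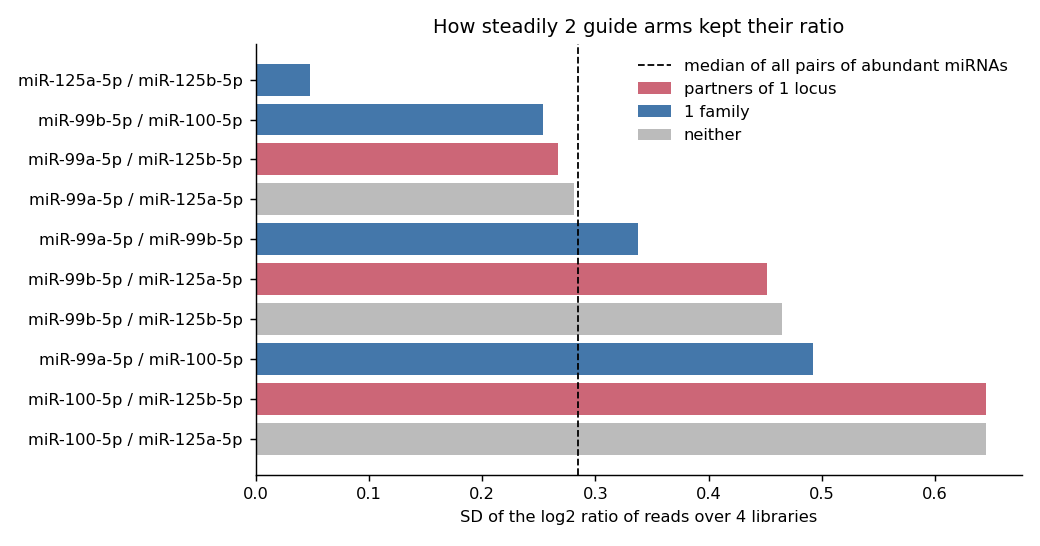
SD over the 4 libraries of the log2 ratio of pairs of arms, for all 10 pairs of the 5 guides, coloured as partners of 1 locus, members of 1 family or neither, with a dashed line at the median of 31626 pairs of abundant miRNAs (0.285). The bars run from 0.0484 for miR-125a-5p to miR-125b-5p up to 0.645 for miR-100-5p to miR-125a-5p, and each partner bar is next to that of the same miR-99/100 guide with the other miR-125 guide.

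The 3p arms of miR-125b allowed the partners to be read hairpin by hairpin. miR-125b-1-3p had 482 RPM (WT1), 449 (WT2), 484 (APP3) and 469 (APP4), and miR-125b-2-3p had 840, 924, 780 and 790 RPM. Neither was called in a sibling pair, although for miR-125b-2-3p both AD libraries were below both WT libraries. Against them the miR-99/100 guides were lower in AD by log2 differences of −0.49 (miR-99a-5p to miR-125b-2-3p) and −1.34 (miR-100-5p to miR-125b-1-3p), with both AD libraries below both WT libraries in each. How often ratios of all miRNAs separate in this way was not counted. The ratios of 3p arms of partners had an SD of 0.407 for miR-99a-3p to miR-125b-2-3p, wider than the 0.267 of the guides, and of 0.387 for miR-100-3p to miR-125b-1-3p and 0.266 for miR-99b-3p to miR-125a-3p, narrower than those of the guides. The ratios of 3p arms to those of let-7 had an SD of 0.105 for miR-99a-3p to let-7c-1-3p and 0.142 for miR-99b-3p to let-7e-3p, and the 3p arms of the miR-125b hairpins on chromosomes 9 and 16 had an SD of 0.155. Few reads widen some of these ratios. The counting SE of the sibling differences was 0.214 and 0.239 for miR-99a-3p to let-7c-1-3p, so its SD cannot be told from counting error. For miR-100-3p to miR-125b-1-3p it was 0.282 and 0.327, so that SD is partly counting error.

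The let-7 guides of the same loci had their own order. let-7c-5p had 16407 RPM (WT1), 14857 (WT2), 13479 (APP3) and 18886 (APP4), let-7a-5p 13739, 12226, 12203 and 15613 RPM, and let-7e-5p 3158, 2939, 2862 and 3694 RPM. All 3 were highest in APP4, where the miR-99/100 and miR-125 guides were lowest, and lowest in APP3. On the TMM scale all 3 were highest in WT1 instead. let-7a-5p and let-7c-5p are also made at other loci, on chromosomes 13 and 15, so only let-7e-5p reports its locus alone. Of the 10 other products examined (the let-7 arms and the 3p arms of miR-125b), 0 were called in either pair by Fisher's exact test. Among all tested miRNAs 11.6% (APP4 against WT1) and 6.81% (APP3 against WT2) were called in either direction, so 0 of 10 does not set them apart. Over the 4 mice edgeR called 0 of these 10 and 0 of all 623. The 10 include let-7a-1-3p and let-7c-2-3p, which come from the loci on chromosomes 13 and 15 and have the same sequence. The log2 fold changes of the 10 lay between −0.11 and 0.40 in the first pair and between −0.25 and 0.35 in the second.

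Compared over the 4 libraries with the other 251 miRNAs of at least 50 RPM, by the root mean square difference of the centred log2 levels, each miR-125 guide had the other as its nearest (0.0419). The next for miR-125a-5p were miR-298-5p (0.0724) and miR-145a-3p (0.0837), and for miR-125b-5p miR-873a-3p (0.0614) and miR-212-5p (0.0640). miR-99b-5p was nearest to miR-501-3p (0.143), then to miR-100-5p (0.220) and miR-99a-5p (0.292). miR-100-5p was nearest to miR-501-3p (0.161), then to miR-99b-5p (0.220) and miR-409-5p (0.273). miR-99a-5p, with the smallest range of the family, was nearest to miR-346-5p (0.140), miR-143-3p (0.208), a miRNA of smooth muscle, and miR-204-5p (0.214), a miRNA of the choroid plexus. The partner at the same locus ranked 7 for miR-99a-5p, 6 for miR-99b-5p and 7 for miR-100-5p among the 251. In the same order, the other miR-125 guide ranked 9, 7 and 8, close to the partner. From the other side the ranks of partners were lower, since miR-99b-5p ranked 133 for miR-125a-5p, and miR-99a-5p ranked 25 and miR-100-5p 234 for miR-125b-5p.

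Several of these neighbours had a run of letters in common with the miR-99/100 guides, which was seen after their values were known. The run ACCCG, searched in mature sequences as written and not on the complement, occurred in 7 of the 326 miRNAs that averaged 10 RPM or more and had a RefSeq sequence (2.15%). It starts at base 2 in the 3 miR-99/100 guides and lies elsewhere in the 4 others, which are shown with the run in capitals.
miR-501-3p: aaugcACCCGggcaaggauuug
miR-409-5p: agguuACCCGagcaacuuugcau
miR-342-3p: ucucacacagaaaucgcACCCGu
miR-1247-5p: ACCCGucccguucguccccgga

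miR-501-3p had 112 RPM (WT1), 279 (WT2), 123 (APP3) and 58.5 (APP4), miR-409-5p had 127, 377, 123 and 46.8 RPM, and miR-342-3p had 182, 678, 186 and 152 RPM. Each was highest in WT2 and lowest in APP4, as were the miR-99/100 guides. miR-1247-5p, the exception, had 15.2, 15.2, 14.2 and 15.9 RPM. Of the 7 miRNAs with the run, 6 were lower in AD in both sibling pairs, beside 13.8% of the 326. Their median log2 fold change was −0.79 in APP4 against WT1 and −1.18 in APP3 against WT2, where all 326 had 0.16 and 0.04. Between mice of the same genotype the medians were 1.09 for WT2 against WT1 and −0.88 for APP4 against APP3, beside 0.06 and 0.09. The 15 runs that differ from it by 1 letter, held by 1 to 12 of the 326 miRNAs each, had medians between −0.0087 and 0.40 in WT2 against WT1. Of the 60 miRNAs with such a changed run, 4 also held ACCCG. Among the 7 are the 3 miR-99/100 guides and their neighbours miR-501-3p and miR-409-5p, the miRNAs in which the run was first seen. The counts and medians of the 7 were thus largely fixed in advance and do not test the run. These values are a description of a pattern chosen from the same libraries.

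**Figure D5:**
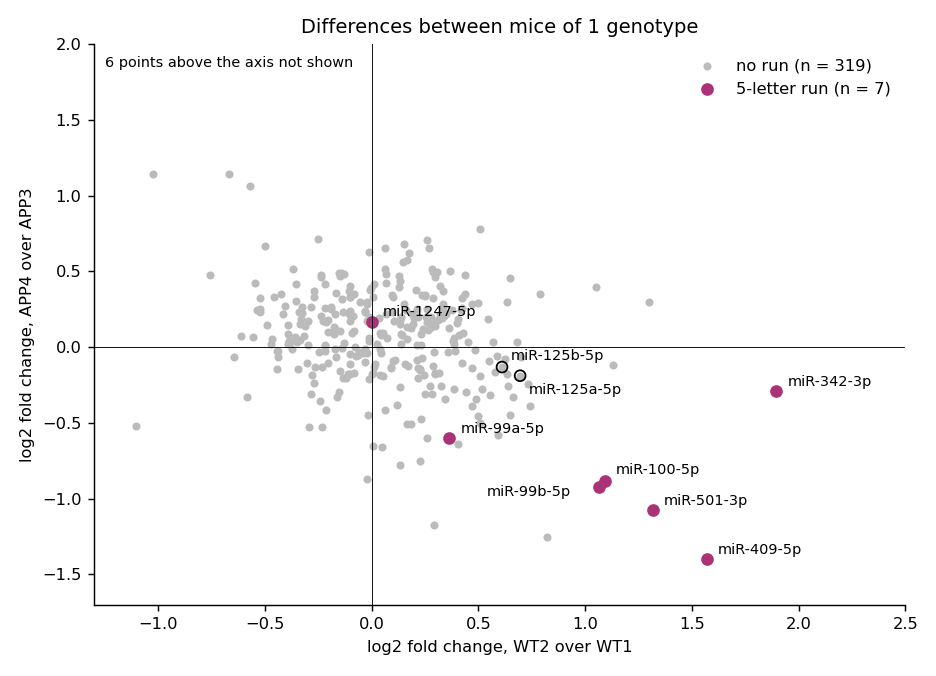
Log2 difference of APP4 against APP3 plotted against that of WT2 against WT1 for 326 miRNAs averaging 10 RPM or more, with the 7 that hold the run ACCCG marked and 6 points above the axis not shown. The marked miRNAs other than miR-1247-5p lie to the lower right, higher in WT2 than in WT1 and lower in APP4 than in APP3.

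The miR-10 arms, relatives of miR-99/100 made at the Hox gene clusters, differ from that family within the seed and lack the run. miR-10b-5p had 481 RPM (WT1), 224 (WT2), 226 (APP3) and 157 (APP4), with WT1 apart from the rest. It was called lower in APP4 against WT1 at −1.61 and had 0.01 in APP3 against WT2. miR-10a-5p had 397, 394, 338 and 440 RPM and was called in neither pair. The 3p arms were close to undetected, with at most 0.376 RPM for miR-10a-3p and 1 read in all for miR-10b-3p, in WT1.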

How the data were processed

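The authors removed adapters and low-quality reads, matched the remaining reads of small RNA length to mouse miRNAs of miRBase with Bowtie, and counted exact and variant reads of each mature miRNA with CLC Genomics Workbench. The deposited counts, without normalization, were used for all values. The deposited RPM column (headed TPM, per 1000000 clean reads) was used only to recover the clean reads of each library. The submitters' processing notes name CASAVA 1.8 and mm9, whereas the study's methods name GRCm38. Coordinates come from GRCm38 hairpins matched by name. The labels and the study also differ on the RNA extraction.

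Counts were scaled to each library's miRNA total. Fisher's exact tests (scipy 1.17.1, Python 3.11.15), with 0.5 read added before log2 fold changes and Benjamini-Hochberg adjustment over all miRNAs with a read, used the test and limits that the study names. The study states that counts were first normalized to the miRNA total, whereas unscaled counts were tested here, with counts scaled to 1000000 and rounded as an alternative that called fewer miRNAs. Genotypes were compared with the quasi-likelihood test of edgeR 4.0.16 (R 4.3.3) after filterByExpr and TMM, and DESeq2 1.42.0 was an alternative. Both the Fisher and edgeR steps were tested on simulated data. Ratios were compared with exact permutation tests. Alternatives were other library sizes, limits, filters and added reads, near-identical guides summed, the sibling pair as a block and each mouse left out in turn. Arm ratios were computed for hairpins with at least 30 reads of each arm in every library, and neighbours among miRNAs of at least 50 RPM. Named miRNAs were the 9 arms, the other products of the loci and of their let-7 copies elsewhere, the miR-10 arms and the 3 nearest profiles of each guide. miR-342-3p and miR-1247-5p were added for their sequence after their values were seen. Members and lists were chosen with earlier results of these data known.

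The labels number the mice 1 to 4 without a shared number, and the sibling pairs come from the study's methods. The deviations of siblings from their group means had r = 0.235 over 252 miRNAs of at least 50 RPM. With 2 mice a genotype these deviations are mirror images, and the other pairing would give the same value with the opposite sign. The value therefore does not show that siblings were alike. No pair of libraries differed by sampling noise alone. The mice are separate animals, and each was sequenced once.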

Additional observations from a re-analysis of the deposited data

Results flagged for a closer look

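In 4 miRNAs of these loci and of the miR-10 family the sibling pairs had opposite signs with a false discovery rate under 0.05 in both pairs by Fisher's exact test. Others had opposite signs without reaching that rate in both. miR-125a-3p, the arm opposite the miR-125a guide, had log2 fold changes of 0.31 in APP4 against WT1 and −0.45 in APP3 against WT2. let-7c-5p had 0.20 and −0.14, let-7e-5p 0.23 and −0.038, and miR-10a-5p 0.15 and −0.22. None of the 4 reached 1.5-fold in either pair. Whether the pairs differed was not tested, since each pair has 1 library of each genotype. On the TMM scale, which lowers the values of the first pair, let-7c-5p, let-7e-5p and miR-10a-5p had −0.05, −0.03 and −0.11 there, so that only miR-125a-3p, at 0.05, kept opposite signs. With 2 mice a genotype no test for a single deviating library was made.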

How the results depend on the processing

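Of the 66 alternatives for the comparisons, 52 kept a count within 1.5 times that reported or, for ratios, the sign only. In APP4 against WT1, 104 miRNAs were called (87 higher, 17 lower), and 85 with TMM library sizes (39 higher, 46 lower). In that pair and in APP3 against WT2, where 61 were called, the counts were 32 and 23 after scaling to 1000000 and rounding, 50 and 23 at a 2-fold limit, 53 and 30 from 10 RPM, and 65 and 34 with Bonferroni correction. edgeR called 0 miRNAs, 2 with the sibling pair as a replicate block, and 0 to 21 with a mouse left out (3 without WT1, 21 without APP3, 5 without APP4). The block changed no other call on the 9 arms. With a mouse left out, partner differences ranged from −0.51 to −0.038 for miR-99a-5p, −0.89 to −0.16 for miR-99b-5p and −1.297 to −0.55 for miR-100-5p. Arm ratio differences ranged from −1.47 to −0.54 for mir-99a, −1.62 to −0.40 for mir-99b, −1.75 to 0.027 for mir-100 (0.027 without WT2) and −0.59 to 0.061 for mir-125a (0.061 without APP4). The other reversals were in arms that were not called. miR-99b-3p was at −0.13 in APP4 against WT1 with TMM, and in edgeR ranged from −0.079 (without WT2) to 0.13, with −0.0087 without APP3. miR-99a-3p ranged in edgeR from −0.021 (without WT2) to 0.50, and miR-100-3p was at 0 in APP3 against WT2 after rounding. The cause was not tested. Counting error was widest for miR-100-3p and the miR-10 3p arms.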
